A study of Mus musculus with 4 samples.

Results

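In livers of mouse fetuses at 14.5 days post coitum (dpc), 10 genes of bile acid metabolism were followed: Cyp7a1, Cyp8b1, Cyp27a1 and Baat of synthesis, Abcb11, Abcb4, Abcc2 and Slc10a1 of transport, and Nr1h4 and Nr0b2 of its control. The 10 genes were chosen by name, with earlier results of these data known, from 22911 genes with a named array feature. Every non-control probe whose transcript belongs to 1 of them was taken, whatever its level, which gave 13 of 56605 probes. Female C57BL/6J mice had received a control diet (CD, 4.3% of energy as fat) or a high-fat diet (HFD, 60% of energy as fat) during gestation, and the question was what the diet of the dam did to gene expression in the fetal liver. Arrays CD_1 and CD_2 came from the CD side and arrays HFD_1 and HFD_2 from the HFD side. All mice of both groups were of 1 strain, and the labels name no mutation or drug. The sources used here do not say how many fetuses or dams stand behind an array, so p-values measure the spread between these 4 arrays, which may be technical in part.

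Bile acids are made from cholesterol in hepatocytes. Cyp7a1 encodes the rate-limiting enzyme of the classical route, Cyp8b1 sets the share of cholic acid, Cyp27a1 opens the alternative route, and Baat couples bile acids to taurine or glycine. Conjugated bile acids leave the hepatocyte through the canalicular pump encoded by Abcb11 and return from portal blood through the uptake carrier encoded by Slc10a1. When bile acids bind the nuclear receptor FXR, encoded by Nr1h4, it induces Nr0b2, whose product SHP represses Cyp7a1. The fetal liver is at the same time the main site of blood formation, and much of this programme is known to rise around birth.

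RefSeq promoters of assembly GRCm38.p6, from 250 bases before to 50 after each gene's start, were at hand for 8 of the 10 genes, in 9 windows. They were searched on both strands for the inverted repeat AGGTCANTGACCT, the element that FXR binds with its partner RXR, with 1 letter allowed to differ, and for the HNF1 element GTTAATNATTAAC with up to 2 letters allowed to differ. The 100 bases before the start are shown for the windows with a match, because Abcb11 is the classic target of the receptor that Nr1h4 encodes. Capitals mark the match, and bases run 5′ to 3′ on the gene's strand. The Abcb11 window (chr2:69342617-69342716, minus strand) held an inverted repeat at -63 to -51, the Nr1h4 window (chr10:89506659-89506758, minus strand) an HNF1 element at -40 to -28, and the Abcc2 window (chr19:43782208-43782307, plus strand) an HNF1 element at -75 to -63.
Abcb11: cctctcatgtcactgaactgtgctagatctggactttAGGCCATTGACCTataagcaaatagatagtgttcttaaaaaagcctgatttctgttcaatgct
Nr1h4: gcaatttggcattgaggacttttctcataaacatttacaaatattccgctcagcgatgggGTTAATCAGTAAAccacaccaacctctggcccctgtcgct
Abcc2: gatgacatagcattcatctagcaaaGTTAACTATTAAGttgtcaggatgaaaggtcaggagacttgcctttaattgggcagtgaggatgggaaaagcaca
Of all 32851 promoter windows, 27 (0.0822%) held the inverted repeat and 446 (1.36%) the HNF1 element at these settings. The matches describe letters and not occupied sites.

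On each array the level of a probe was the log2 of its background-subtracted intensity minus the array's 75th percentile, so that a level of 0 is the 75th percentile of all probes. A probe was called well above background where the scanner software had set that flag. The 4 arrays shared 1 slide and 1 scan. Between 65.4% and 70.0% of their spots were well above background, and no spot was saturated. All 18 hepatocyte markers, among them Alb, Afp and Serpina1a, and all 9 erythroid markers with a probe, among them Hba-a1, Hbb-bt and Hbb-y, were well above background on every array, as the label fetal liver implies.

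Several features of these arrays bear on every comparison that follows. The labels give female for all 4 samples without saying whether dam or fetus is meant. Eif2s3y, on the Y chromosome, was at 1.45 on CD_1 and 1.84 on HFD_1 but at -6.74 on CD_2 and -6.32 on HFD_2. Ddx3y, Kdm5d and Uty had the same pattern, with levels from -2.85 to -0.31 on the replicate 1 arrays and from -7.99 to -7.65 on the replicate 2 arrays. Xist, the RNA of the inactive X chromosome, was at -8.29 and -6.84 on CD_1 and HFD_1, not well above background, and at -0.65 and -0.74 on CD_2 and HFD_2. The replicate number therefore went together with the sex-linked transcripts in both diets, and differences within a replicate number are given beside the pooled ones. The hepatocyte marker list had a median level of 5.96 on CD_1, 6.92 on CD_2, 6.52 on HFD_1 and 6.39 on HFD_2, so the distance between the CD arrays, not that between diets, was the largest. In RNA from whole livers, fewer cells of a type and less RNA per cell cannot be told apart.

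Markers of other tissues also differed between the diets. Of 12 trophoblast genes, 11 had HFD levels that were all under the CD levels, with differences in mean log2 level from -4.91 to -3.80. Tpbpa was at 3.01 and 4.80 in CD and at 1.00 and -1.01 in HFD, and Prl3b1 at 1.03 and 3.27 in CD and at -0.996 and -2.31 in HFD. The filter on linear CV left these 11 genes out of the test below. Gcm1, the remaining gene, was at 5.65 and 4.28 in CD and at 5.43 and 5.60 in HFD. The summed level of the 12 genes, in units of the array's 75th percentile, was 68.9 and 86.8 in CD and 47.5 and 49.5 in HFD. Of 10 gonad and adrenal genes, 8 had the higher mean in HFD (summed level 38.4 and 54.0 in CD, 42.8 and 50.2 in HFD), and Cyp11a1 and Nr5a1 were past the cutoffs used below. Of 10 kidney genes, 8 had the higher mean in HFD (summed level 2.74 and 3.34 in CD, 3.22 and 5.02 in HFD). Umod and Slc12a1 of that list stayed within background throughout. No gut, erythroid, hepatocyte or cholangiocyte marker was past them. The part of these other tissues in the results below was not tested.

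The diets were compared with limma on the 41332 probes that passed filters on low and variable signals, among them 12 probes of 9 of the 10 genes. Cyp8b1 was left out, because its probe was under the 20th percentile of an array. To pass, a probe needed an unadjusted p under 0.05 and at least a 2-fold change. Of all probes tested, 318 (0.769%) passed both cutoffs, 121 of them (0.293%) with the higher level in HFD, and 1383 (3.35%) had an unadjusted limma p under 0.05, where about 2067 would be if no probe differed. No probe (0.0%) had a limma p adjusted by Benjamini-Hochberg under 0.05, and the smallest adjusted p was 1.00. Of the 12 member probes, 1 passed both cutoffs, that of Cyp7a1, and 2 had an unadjusted limma p under 0.05, those of Cyp7a1 and Nr0b2. Both diets overlapped at the other 10. The 2 probes whose HFD arrays both lay above both CD arrays made 16.7% of the member probes, beside 19.5% of all tested probes, and none of the 12 lay the other way, beside 11.1% of all. These shares without overlap were near those of the array as a whole.

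**Figure D1:**
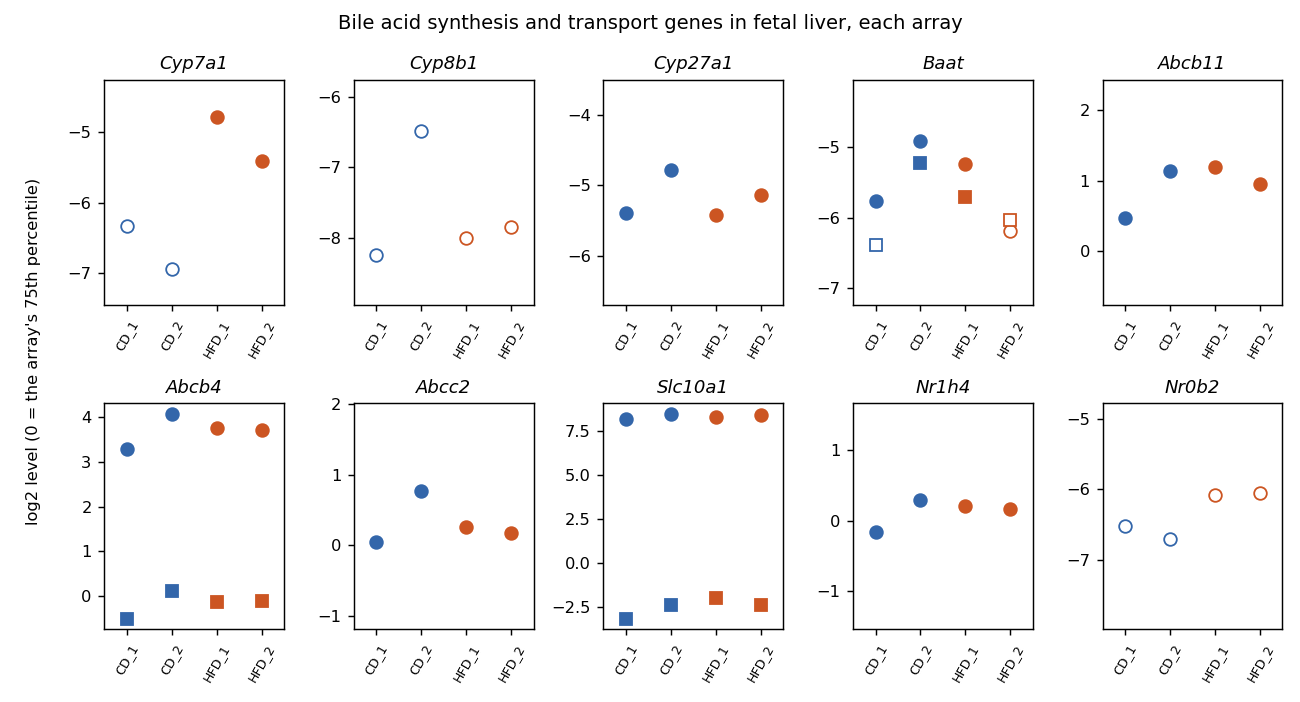
Log2 level of every member probe on each of the 4 arrays, with CD in blue and HFD in orange; circles are the probe with the higher mean intensity of a gene, squares its second probe, and hollow symbols were not well above background. The symbols of Cyp8b1 and Nr0b2 are all hollow, those of Cyp7a1 only on the CD arrays, and the HFD arrays lie clear of the CD arrays for Cyp7a1 and Nr0b2 alone.

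Among the enzymes of synthesis, Cyp7a1 was the member with the clearest difference between diets. Its level was -6.33 on CD_1 and -6.93 on CD_2, not well above background on either, and -4.78 on HFD_1 and -5.41 on HFD_2, well above background on both. Both HFD arrays were higher than both CD arrays. The intensities behind these levels were low, 13.3 and 5.76 in CD and 35.3 and 21.4 in HFD, where the 75th percentile of an array lay between 704 and 1073. With the lowest level well above background on each CD array in place of its own, Cyp7a1 was 1.62-fold higher in HFD. This value, called its bound below, leaves out the spread between arrays and is not a lower limit of the true difference. The normexp background correction below gave a smaller difference. The measured means, -6.63 ± 0.43 in CD and -5.10 ± 0.44 in HFD (SD, n = 2 each), differed by 1.54 (SE 0.33). The unadjusted limma p was 0.0071 and the adjusted p was 1.00, so the difference passed both cutoffs and not the adjusted threshold. Between the replicate 1 arrays it was 1.55 and between the replicate 2 arrays 1.52. An exact permutation test of 2 against 2 arrays cannot give a p below 0.333. With normexp background correction the difference fell to 0.29 and the unadjusted limma p was 0.053, and under the methods' t-test on the same 4 values Cyp7a1 missed the p cutoff.

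Cyp8b1, the sterol 12-alpha-hydroxylase, was at -8.24 and -6.48 on the CD arrays and at -8.00 and -7.84 on the HFD arrays. None of these values was well above background, and no difference between diets is given. Cyp27a1, the sterol 27-hydroxylase of mitochondria, was at -5.40 and -4.79 on the CD arrays and at -5.42 and -5.14 on the HFD arrays, dim but well above background on all 4. The diets overlapped, and the difference was -0.18 with a 95% interval from -0.91 to 0.54. Baat had 2 probes, both dim. The one with the higher mean intensity was at -5.76 and -4.90 in CD and at -5.24 and -6.19 in HFD, where HFD_2 was not well above background. The other was at -6.38 and -5.22 in CD and at -5.71 and -6.03 in HFD, with CD_1 and HFD_2 not well above background. The differences were -0.38 (95% interval from -1.59 to 0.82) and -0.07 (from -1.20 to 1.07), so neither probe separated the diets, and a 2-fold decrease lies within both intervals.

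The canalicular transporters were measured well above background on every array. Abcb11, the bile salt export pump, was at 0.47 and 1.14 in CD and at 1.19 and 0.96 in HFD. CD_1 was the lowest array, and the other 3 lay within 0.23 of each other. Its means, 0.81 ± 0.47 in CD and 1.08 ± 0.16 in HFD (SD, n = 2 each), differed by 0.27 (95% interval from -0.48 to 1.02). Abcb4 encodes the flippase that brings phosphatidylcholine into bile. Its first probe was at 3.28 and 4.08 in CD and at 3.76 and 3.70 in HFD, and its second at -0.51 and 0.11 in CD and at -0.12 and -0.10 in HFD. On both probes the HFD arrays lay between the CD arrays, with differences between diets of 0.05 (95% interval from -0.76 to 0.87) and 0.09 (from -0.59 to 0.77). Abcc2, the export pump for conjugated organic anions such as bilirubin glucuronide, was at 0.05 and 0.77 in CD and at 0.27 and 0.17 in HFD. Here too the HFD arrays lay between the CD arrays, and the difference was -0.19 (95% interval from -0.96 to 0.57).

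Slc10a1, the sodium-dependent uptake carrier NTCP of the hepatocyte's blood side, had a probe for each of 2 RefSeq transcripts. The probe of NM_011387 was at 8.19 and 8.48 in CD and at 8.27 and 8.39 in HFD, with intensities from 250770 to 312250. The HFD arrays again lay between the CD arrays, and the difference was 0.00 (SE 0.19, 95% interval from -0.50 to 0.50), the narrowest interval but one among the member probes. The probe of NM_001177561 was at -3.19 and -2.38 in CD and at -2.02 and -2.43 in HFD. CD_1 was the lowest array and HFD_1 the highest, and the difference was 0.57 (95% interval from -0.34 to 1.47). The 2 probes thus gave different pictures of 1 gene, neither past the cutoffs. A difference in level between probes carries the probes' own binding as well as the amount of RNA. The probe of NM_011387 was near the level of Alb, whose brighter probe was at 8.14 and 9.06 in CD and at 8.53 and 8.54 in HFD. Whether its signal came from Slc10a1 RNA alone was not tested.

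Nr1h4, the bile acid receptor FXR, was at -0.16 and 0.29 in CD and at 0.21 and 0.17 in HFD, well above background on all arrays. The HFD arrays lay between the CD arrays, and the difference was 0.13 (95% interval from -0.45 to 0.71). Nr0b2, the FXR target SHP, was at -6.52 and -6.71 in CD and at -6.08 and -6.06 in HFD. Both HFD arrays were higher, with an unadjusted limma p of 0.027 and an adjusted p of 1.00. None of these 4 values was well above background, so no fold change is given. The unadjusted limma p of Nr0b2 was 0.081 with the replicate number as a block, 0.41 under normexp and 0.017 under quantile normalization. Under the methods' t-test the p was 0.028, and under its form for unequal variances 0.10. Nr1h4 and Abcb11 were thus well above background on all 4 arrays, Nr0b2 on none and Cyp7a1 on the HFD arrays alone.

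**Figure D2:**
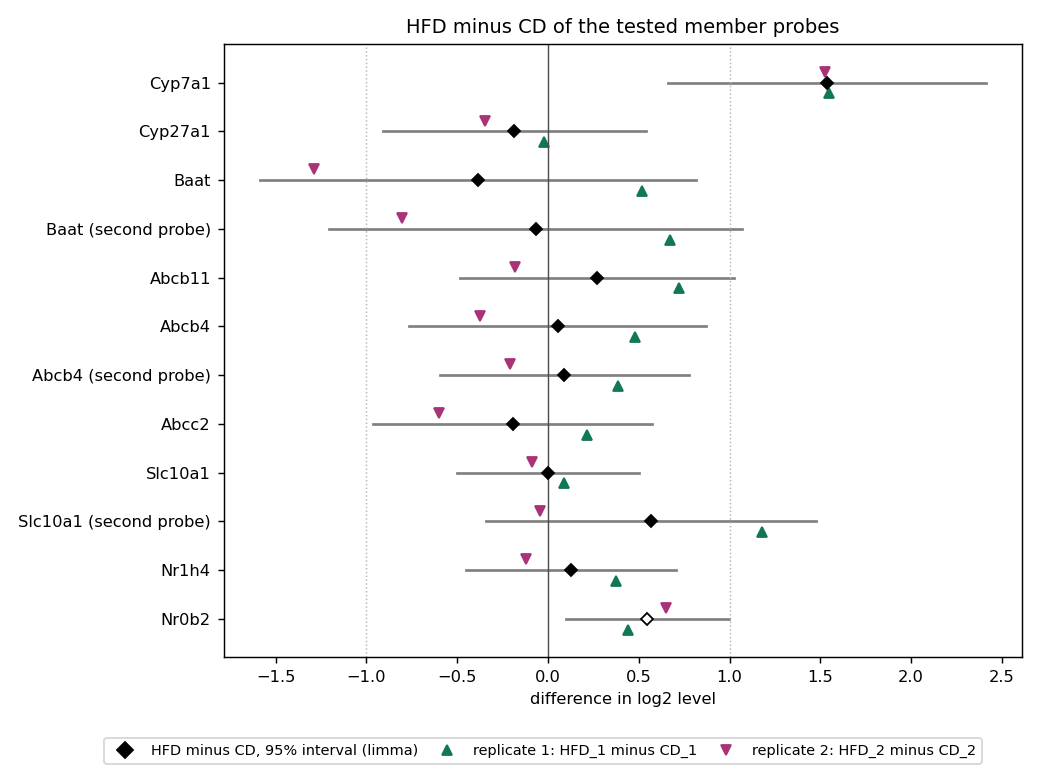
Difference in log2 level between HFD and CD for the 12 tested member probes: diamonds are the difference of the means with its 95% interval from limma, and triangles the difference within replicate 1 (upward) and within replicate 2 (downward). The hollow diamond of Nr0b2 marks a probe that was not well above background on any array, and dotted lines mark a 2-fold change. Only Cyp7a1 and Nr0b2 have both triangles to the right of 0.

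The absolute gap between CD_1 and CD_2 was larger than the difference between diets for 10 of the 12 member probes (83.3%), beside 72.8% of all tested probes. CD_2 was above CD_1 for 10 of 12 (83.3%, against 52.6% of all), and the median gap CD_2 minus CD_1 was 0.64 for the members and 0.03 for all tested probes. The HFD arrays were closer to each other, and their gap was larger than the difference between diets for 5 of the 12 member probes (41.7%), beside 46.2% of all tested probes. For 10 of 12 member probes the CD gap was wider than the HFD gap, beside 75.6% of all tested probes. Within replicate 1, HFD was above CD for 11 of 12 member probes (56.0% of all), and within replicate 2 for 2 of 12 (53.1% of all). The signs were opposite in the 2 replicate numbers for 9 of 12 member probes (59.1% of all tested probes). Abcb11, for example, was 0.72 higher in HFD within replicate 1 and 0.18 lower within replicate 2, and Abcc2 was 0.21 higher and 0.60 lower. Over the 9 genes tested, the median difference between diets was 0.05, beside 0.03 for all tested probes. With Cyp7a1 at its bound and without Nr0b2 it was 0.03.

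**Figure D3:**
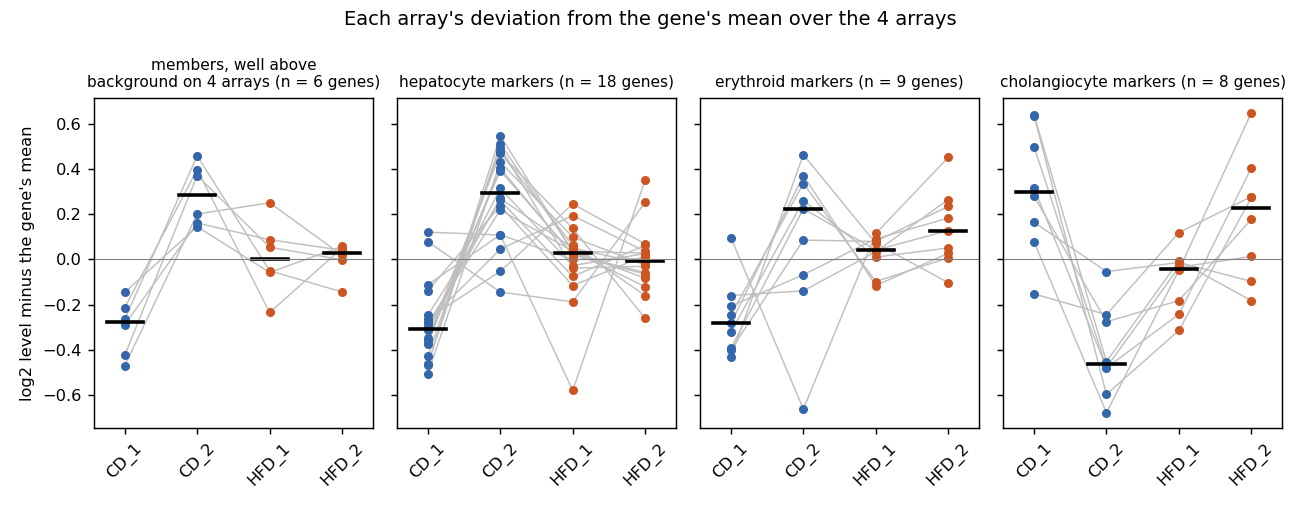
Deviation of each array from a gene's mean log2 level over the 4 arrays, for the 6 members well above background on all arrays, 18 hepatocyte markers, 9 erythroid markers and 8 cholangiocyte markers; grey lines join the points of a gene and black bars are medians. Members, hepatocyte markers and erythroid markers lie lowest on CD_1 and highest on CD_2 by their medians, and cholangiocyte markers the reverse. The medians of the HFD arrays lie between those of the CD arrays in every panel.

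Part of this spread was shared with hepatocyte and erythroid markers. CD_2 was above CD_1 for 16 of 18 hepatocyte markers, with a median gap of 0.60, and for 8 of 9 erythroid markers, with a median gap of 0.58. All 8 cholangiocyte markers went the other way, with a median gap of -0.78; Krt19 was at 2.15 on CD_1 and 1.18 on CD_2, and Spp1 at 1.73 and 0.98. When the hepatocyte marker median was subtracted on each array, Abcb4 was at -2.68 and -2.84 relative to it in CD and at -2.76 and -2.69 in HFD. The SD of its CD arrays was 0.11 on this scale, against 0.56 without the subtraction. By the brighter probe, this SD also fell for Cyp27a1 (0.43 to 0.24), Abcb11 (0.47 to 0.20) and Abcc2 (0.51 to 0.16). For Slc10a1 it rose from 0.21 to 0.47, and for Nr1h4 from 0.32 to 0.36, so the subtraction did not narrow the CD arrays of every member. Abcb11 was at -5.49 and -5.78 in CD and at -5.32 and -5.43 in HFD on the same scale, and Abcc2 at -5.91 and -6.15 in CD and at -6.25 and -6.22 in HFD. The diets then no longer overlapped for either, with HFD higher for Abcb11 by 0.26 and lower for Abcc2 by 0.21. The limma p of the arrays centred in this way was 0.67 and 0.73. The second probe of Slc10a1 no longer overlapped either, higher in HFD by 0.55 (limma p 0.36). In this centred fit every tested member probe had the same SE, 0.61. These 3 p-values therefore rest on a spread shared over probes and do not measure that of the single probe. Cyp8b1, not well above background on any array, was lower on both HFD arrays. The share of all probes without overlap on this scale was not taken. Cyp7a1 stayed higher in HFD, at -12.29 and -13.85 in CD and at -11.30 and -11.80 in HFD relative to the markers. Its CD values were not well above background, so on this scale they follow in part the marker median of the array. Nr0b2, not well above background on any array, then overlapped between the diets, with -12.49 and -13.63 in CD and -12.60 and -12.45 in HFD. Over the 6 members well above background on all arrays, the median difference between diets relative to the markers was 0.01, but it was -0.26 within replicate 1 and 0.26 within replicate 2.

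The other genes of the pathway were counted on the probe of each gene with the highest mean intensity. Of 15 further genes of synthesis, conjugation and side-chain shortening, all were tested and none had an unadjusted limma p under 0.05. Their differences lay between -0.31 and 0.29 with a median of 0.12, beside 0.03 for all tested probes, and 12 were above 0. The share of all tested probes above 0 was not taken. Scp2, a sterol carrier of peroxisomes, was at 4.72 and 5.12 in CD and at 5.20 and 5.08 in HFD. Slc27a2, an acyl-CoA synthetase that activates bile acid precursors, was at 3.24 and 3.75 in CD and at 3.72 and 3.51 in HFD. Abcd3, a peroxisomal importer, was at 3.40 and 3.45 in CD and at 3.52 and 3.46 in HFD. Akr1d1, the steroid 5-beta-reductase, had a difference of 0.07 on its brighter probe; its other probe, not well above background on any array, had an unadjusted limma p of 0.0092 and gives no fold change.

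Of 21 further transport genes, 17 were tested, and none had an unadjusted limma p under 0.05. Their differences lay between -0.27 and 0.59 with a median of 0.24, beside 0.03 for all tested probes, and 14 were above 0. Here too the share of all tested probes above 0 was not taken. Abcg2, an efflux pump also known from blood progenitors, was at 5.16 and 5.44 in CD and at 5.60 and 5.60 in HFD. The water channel Aqp8 was at 2.02 and 2.28 in CD and at 2.12 and 3.38 in HFD, so that 1 array stood apart, and without HFD_1 it passed both cutoffs with a difference of 1.23. The channel Aqp9 was at 1.31 and 1.41 in CD and at 1.65 and 1.65 in HFD, while the diets overlapped on its second probe, with a difference of 0.04. Slc51b, Slc10a2 and Slc22a7, for a basolateral exporter, the carrier of the ileum and an organic anion carrier, stayed within background throughout and were not tested. Slco1a4, for an organic anion carrier, was not tested either, because CD_2 was under that array's 20th percentile. It was at -5.94 and -7.72 in CD and at -5.74 and -5.35 in HFD, well above background on CD_1 and HFD_2 alone, and both HFD arrays were higher.

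Of 22 further regulators, all were tested, and 1, Fgf15, had an unadjusted limma p under 0.05. Fgf15, an intestinal hormone that represses Cyp7a1 in the liver, was at -5.12 and -5.07 in CD and at -6.08 and -5.57 in HFD, where HFD_1 was not well above background. Both HFD arrays were lower, with a difference of -0.73 (SE 0.23) that was short of the 2-fold cutoff. Its unadjusted limma p was 0.030 and its adjusted p 1.00. Its receptor genes overlapped between diets: Fgfr4 was at 1.94 and 1.82 in CD and at 1.88 and 1.93 in HFD, and Klb at -0.09 and 0.83 in CD and at 0.56 and 0.28 in HFD. Mafg, a repressor induced by FXR, was at 4.48 and 4.55 in CD and at 4.72 and 4.73 in HFD. Rxra, the partner of FXR, was at 4.54 and 4.51 in CD and at 4.63 and 4.54 in HFD. On its second probe the diets overlapped, with a difference of -0.25. Hnf4a, a nuclear receptor of hepatocyte identity, was at 3.91 and 4.01 in CD and at 4.32 and 4.27 in HFD, with an unadjusted limma p of 0.096. On its second probe the diets overlapped, with a difference of 0.04. The differences of the 22 genes lay between -0.73 and 0.35 with a median of 0.07. Fgfr4 and Klb were named beyond the rule for named genes, after their values were seen.

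**Figure D4:**
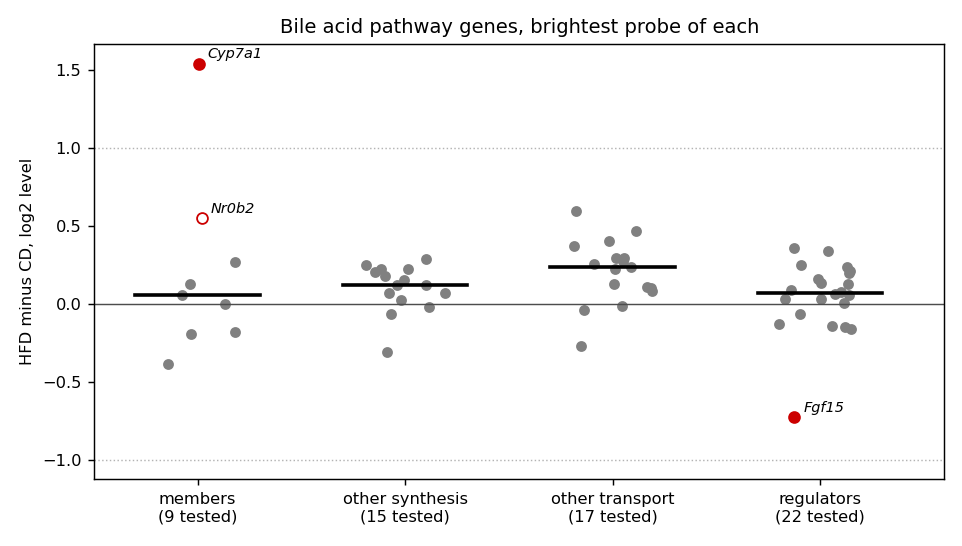
Difference in log2 level between HFD and CD for the tested genes of each pathway list, 1 point per gene; black bars are medians, red marks an unadjusted limma p under 0.05, the hollow red point was not well above background on any array, and dotted lines mark a 2-fold change. Cyp7a1 is the only point beyond a dotted line.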

How the data were processed

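Fetal liver RNA was measured on 4 single-colour Agilent arrays, grouped by title (CD, HFD; n = 2 each). Per the submitters' processing notes, Agilent Feature Extraction 11.0.1.1 was used. The authors' files hold, per spot, a background-subtracted intensity, the median signal and background brightness, and flags of 0 or 1 (deposited as scores), unscaled between arrays. A further deposited table, of normalized signal, equalled the intensity divided by 1 constant per array (within 0.1% for all single-spot probes compared). The log2 medians of its columns were -1.71, -1.85, -1.81 and -1.77. Here log2 was taken of the deposited intensities, spots with an outlier flag were left out, spots of a probe were averaged, and the 75th percentile was subtracted. Probes below an array's 20th percentile (14980), or with a linear CV over 50% in both groups (284), were left out of 56596 with usable spots. The study's methods take this CV on the log scale, which was run as an alternative. Transcripts were matched to RefSeq genes of GRCm38.p6 (32994 probes, 22911 symbols); no probe coordinates are given. Ahsp, of the erythroid list, had no match. A single gene of a marker list is not reported here.

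The diets were set against each other (HFD minus CD, no covariate, 4 arrays) in R 4.3.3 by lmFit and eBayes of limma 3.58.1, after a test on simulated data. Tables and plots were made in Python 3.11.15 with matplotlib 3.10.9, pandas 2.3.3 and numpy 2.4.6. All members were named, together with the genes of each pathway list that had an unadjusted p under 0.05 or were among its 3 brightest, and the 3 brightest markers of each tissue list. The members, lists and tests were chosen with earlier results of these data known. The bound of a probe not well above background in 1 diet uses, per array, the higher of its own level and the lowest level well above background. Over the tested probes, the deviations of CD_1 and HFD_1 from the means of their groups had r = -0.10. The replicate numbers were thus not shown to pair the arrays beyond the sex-linked transcripts. Alternatives were quantile normalization, normexp (offset 50, on the median brightness), the deposited table, centring on hepatocyte markers, other filters, a signal floor of 5, the methods' t-test and its form for unequal variances, a replicate block, the mean of a gene's probes, and leaving out each array. The number of arrays limits the precision.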

Additional observations from a re-analysis of the deposited data

How the results depend on the processing

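Cyp7a1 was higher in HFD under all 18 alternatives, by 0.29 to 1.85 in log2 level. Much of this was fixed in advance. The other filters, the signal floor, the t-tests, the block and the mean over probes left its difference at 1.54. Both HFD arrays were above both CD arrays, so leaving out an array or comparing within a replicate number could not reverse it. It missed the cutoffs under normexp (0.29), where an offset of 50 exceeds the whole intensity of Cyp7a1, and under the methods' t-test in both its forms (1.54), so that 0 member probes passed there. Without each array in turn, 1 member probe passed the cutoffs upward every time and 0 downward. With the replicate number as a block, the difference of Cyp7a1 was 1.54 with an unadjusted limma p of 0.00028. The replicate numbers were not shown to pair the arrays (r = -0.10), so this small p rests on a pairing that was not established. The block changed no call of a member at both cutoffs, while the unadjusted limma p of Nr0b2 rose to 0.081.

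Over all tested probes, those past the cutoffs and higher in HFD numbered 9 under normexp, 75 with arrays centred on hepatocyte markers, 373 with no filter, 71 among probes well above background, 41 under the t-test, 21 under its unequal-variance form, and 190 to 843 without 1 array. Those lower in HFD numbered 17 under normexp, 478 with no filter, 56 and 25 under the t-tests, and 383 to 466 without 1 array.

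Differences near 0 changed sign when 1 array was left out. Over these fits Cyp27a1 lay between -0.49 and 0.12, Baat between -0.86 and 0.090, Abcb11 between -0.066 and 0.60, Abcb4 between -0.34 and 0.45, Abcc2 between -0.56 and 0.17, Slc10a1 between -0.15 and 0.15 and Nr1h4 between -0.097 and 0.35. Each became negative without CD replicate 1 or positive without CD replicate 2, and Baat and Slc10a1 also turned without HFD replicate 2. Abcb4 was at -0.023 under quantile normalization and -0.017 under normexp. Slc10a1 was at -0.027 under quantile normalization, -0.00098 in the deposited table and -0.014 when centred on hepatocyte markers. Within replicate 1, chosen after seeing the data, Baat was at 0.52 and Abcc2 at 0.21. Within replicate 2, Abcb11 was at -0.18, Abcb4 at -0.37, Slc10a1 at -0.087 and Nr1h4 at -0.12.

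Without 1 array, the member median lay between -0.15 and 0.35, that relative to hepatocyte markers between -0.23 and 0.22, that of the synthesis genes between 0.020 (without CD_1) and 0.22 (without CD_2), that of the transport genes between 0.16 and 0.28 and that of the regulators between 0.012 and 0.16, and 0 to 1 pathway genes passed the cutoffs. The transport median was 0.10 under normexp, and the regulator median 0.020 with the mean of a gene's probes. Relative to hepatocyte markers, the member median was -0.26 within replicate 1 and 0.26 within replicate 2. Where no cause is given, the cause was not tested. Cyp7a1, Cyp8b1, Baat and Nr0b2 lay at or near background, which limits what these arrays can show of them.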
